A study of Mus musculus with 5 samples.

Results

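The nuclear-encoded subunits of the mitochondrial respiratory chain and ATP synthase were described by complex in ribosome-bound RNA from the mouse cerebral cortex and dentate gyrus. Members were chosen by gene symbol alone, from the Nduf, Sdh, Uqcr, cytochrome c oxidase and Atp5 families. The rule uses no measured value, but it was drawn up with earlier results of these data known. The rule found 76 of the 32531 genes listed in the count tables: 37 of complex I, 4 of complex II, 8 of complex III, 10 of complex IV and 17 of complex V. All 5 libraries came from adult, untreated Rbp4-Cre KL100 mice crossed to Rosa26-LSL-EGFP/Rpl10a. In this cross, Cre removes a stop cassette and the recombined cells make the ribosomal protein Rpl10a fused to EGFP. Tagged polysomes were pulled down with anti-EGFP antibodies from dissected tissue, giving 2 cortex libraries and 3 dentate gyrus libraries, numbered here as in the labels. The KL100 line is a transgene driven by Rbp4 regulatory sequence, so each library reports the cells in which that transgene had been active in that tissue, plus any RNA carried through the pulldown. Both tissues carried the same alleles. RNA from whole tissue and animals lacking Cre were not analysed here, and the sources used here do not give the number of animals behind each library, their exact age or their sex. P-values therefore measure the spread between these libraries, which may be partly technical.

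The respiratory chain moves electrons from NADH (complex I) and succinate (complex II) through ubiquinone to complex III, then by cytochrome c to complex IV, which reduces oxygen to water. Complexes I, III and IV pump protons out of the matrix, and complex V (ATP synthase) lets them flow back to make ATP. Complex II is also succinate dehydrogenase, an enzyme of the citric acid cycle. Neurons depend heavily on this pathway because ion pumping after electrical activity consumes much ATP. A few subunits of complexes I, III, IV and V are encoded by the mitochondrial genome; those transcripts were not analysed here.

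Short promoter stretches are shown first because the promoters of 64 members could be read from the RefSeq table (GRCm38.p6) and searched for motifs of factors known to act on respiratory genes. The windows ran from 250 bases before to 50 bases after each gene start, and both strands were searched. The palindrome GCGCATGCGC, the core recognised by nuclear respiratory factor 1, was present in 5 of the 64 members (7.81%), against 1.07% of 27025 genes with a promoter in the table. Those 5 members were Ndufa11, Uqcrc1, Cox6a1, Atp5g2 and Atp5k. Of the 8 members with a promoter in the table that differed between the tissues, 3 held it, namely Uqcrc1, Cox6a1 and Atp5k. The stretches upstream of Cox6a1 (chr5:115348982-115349208, minus strand) and Atp5k (chr5:108434440-108434649, minus strand) are printed 5′ to 3′ along the gene with the palindrome in capitals, beginning at -162 and -50 from the RefSeq start; they stand for members that differed. Ndufa11 (chr17:56717512-56717761, plus strand) stands for a member that held the same letters at -60 and did not pass the test. The Atp5k palindrome lies before the RefSeq start but mostly within the GENCODE gene, which reaches 108434448.
Cox6a1: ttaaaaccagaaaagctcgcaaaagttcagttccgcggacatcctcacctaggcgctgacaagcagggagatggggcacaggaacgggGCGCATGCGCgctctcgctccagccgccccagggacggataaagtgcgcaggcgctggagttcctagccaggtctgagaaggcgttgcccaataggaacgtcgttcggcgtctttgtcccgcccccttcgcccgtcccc
Atp5k: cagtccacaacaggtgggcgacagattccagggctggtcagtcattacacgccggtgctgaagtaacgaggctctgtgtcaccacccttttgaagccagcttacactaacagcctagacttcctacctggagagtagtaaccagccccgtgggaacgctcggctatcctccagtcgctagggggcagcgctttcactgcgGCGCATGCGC
Ndufa11: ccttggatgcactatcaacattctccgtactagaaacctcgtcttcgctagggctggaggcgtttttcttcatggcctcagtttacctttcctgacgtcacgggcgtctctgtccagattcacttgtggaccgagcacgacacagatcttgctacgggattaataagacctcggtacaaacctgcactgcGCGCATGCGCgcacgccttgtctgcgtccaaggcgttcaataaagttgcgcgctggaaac

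Another 3 motifs gave the following shares. AAGATGGCG, read by YY1, was found in 8 of 64 members (12.5%) against 1.64% of all genes with a promoter; 5 of the 8 were complex I genes and 3 were complex V genes. TCAAGGTCA, read by oestrogen-related receptors, was found in 2 members, Sdhd and Atp5g3 (3.12% against 0.466%). ACCGGAAGT, an ETS site of the kind bound by GABP, was found in 1 member (1.56% against 1.21%). None of the 4 motifs contains another. A match is a description of the sequence only.

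Depth ranged from 22600963 to 36837908 counts on genes per library. Levels are given as CPM, counts scaled to a total of 1e6 gene counts after TMM scaling, and differences as the fitted log2 fold change of dentate gyrus minus cortex, so that negative values are higher in cortex. The neuron types expected of each tissue were present. The 7 granule cell markers summed to 172 to 222 CPM in cortex and 3736 to 4154 CPM in dentate gyrus, all 7 higher there. The 6 layer 5 pyramidal markers summed to 1116 to 1277 CPM in cortex and 398 to 491 CPM in dentate gyrus, and 4 were higher in cortex. Pcp4 overlapped (205 and 166 CPM in cortex, 188, 124 and 155 in dentate gyrus). Bcl6 was higher in every dentate gyrus library but did not pass (128 and 129 CPM in cortex, 157, 165 and 171 in dentate gyrus). Pcp4 and Bcl6 made up most of the dentate gyrus sum. Of the dentate gyrus libraries, library 2 held the most Fezf2, a layer 5 transcription factor (60.2 CPM, against 1.82 in library 1 and 17.5 in library 3; 353 and 283 in cortex). Markers of other cells also moved with tissue. The sum of 8 interneuron markers was 897 to 907 CPM in cortex and 186 to 222 in dentate gyrus (5 higher in cortex, and 1, Gad1, higher in dentate gyrus). Sst made up most of this difference, at 699 and 641 CPM in cortex and 113, 80.8 and 72.4 in dentate gyrus. Pvalb was at 27.5 and 11.6 CPM in cortex and at 0.0276, 0.266 and 0.430 in dentate gyrus. Sums for 7 astrocyte markers were 142 to 165 and 51.6 to 88.5 CPM (3 higher in cortex and the other 4 with positive changes that did not pass; median 0.61, with Aldoc, at 108 CPM on average in cortex and 20.0 in dentate gyrus, making up most of the difference in the sum), and for 6 oligodendrocyte markers 221 to 293 and 161 to 222 CPM (1 higher in cortex). Microglial markers (5 genes) summed to 8.21 to 8.73 CPM in cortex and 0.910 to 5.28 in dentate gyrus, vascular markers (5 genes) to 12.3 to 24.2 and 7.86 to 22.4, and choroid plexus and ependymal markers (4 genes) to 1.91 to 11.1 and 12.1 to 34.6; C1qa and Folr1 had no count in any library. In each library, 25.0% to 31.8% of reads were set aside by the counting as not uniquely placed, 30.0% and 31.8% in cortex and 25.0% to 25.4% in dentate gyrus. The part of these other cells and of read placement in the differences below was not tested.

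Respiratory chain genes as a whole took a larger share of the cortex libraries. The 76 members made up 0.908% and 0.779% of gene counts in cortex and 0.704%, 0.716% and 0.666% in dentate gyrus. After scaling, their sum was 9027 and 7650 CPM in cortex and 7152, 7187 and 6687 CPM in dentate gyrus, 8339 ± 974 (SD, n = 2) against 7009 ± 279 (SD, n = 3), or 15.9% lower. The cortex libraries lay above all the dentate gyrus libraries, and cortex library 1 lay far above cortex library 2. In bulk RNA of this kind, fewer cells of a type and less RNA per cell cannot be told apart. Without cortex library 1 the difference in the sum was -641 CPM, and without cortex library 2 it was -2018 CPM, against -1330 CPM with all libraries.

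Of the 76 members, 73 passed the filter on low counts and were tested; Ndufa4l2, Atp5g2 and Atp5l did not. By the quasi-likelihood test of edgeR, with p adjusted by the Benjamini-Hochberg method over all 14136 genes tested and a threshold of 0.05, 10 members were higher in cortex and 0 were higher in dentate gyrus. The 10 were Ndufs1, Ndufa1, Sdha, Uqcrc1, Uqcrh, Cox4i1, Cox6a1, Cox7b, Cox8a and Atp5k. That is 13.7% of the tested members, beside 21.3% of all tested genes past the threshold in either direction, 10.8% higher in cortex and 10.5% higher in dentate gyrus, so the share higher in cortex was near the background, while no member was on the other side. At an unadjusted p under 0.05, 1 member was higher in dentate gyrus, Atp5c1, and DESeq2 and limma voom each called that 1 member. The count of 10 was 5 without cortex library 1, 6 without cortex library 2, 7 without dentate gyrus library 1, 9 without dentate gyrus library 2 and 7 without dentate gyrus library 3, and the members higher in dentate gyrus numbered 2 without cortex library 1 (Atp5c1 and Atp5g3). The fitted change was negative in 51 members and positive in 22, with a median of -0.29, beside a median of 0.02 over all tested genes, 49.2% of which were negative. The members' median was -0.14 without cortex library 1 and -0.42 without cortex library 2. Both cortex libraries lay above all 3 dentate gyrus libraries in 33 tested members, and below all 3 in 6; over all tested genes these shares were 25.0% and 25.1%, or 50.1% in either direction.

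**Figure D1:**
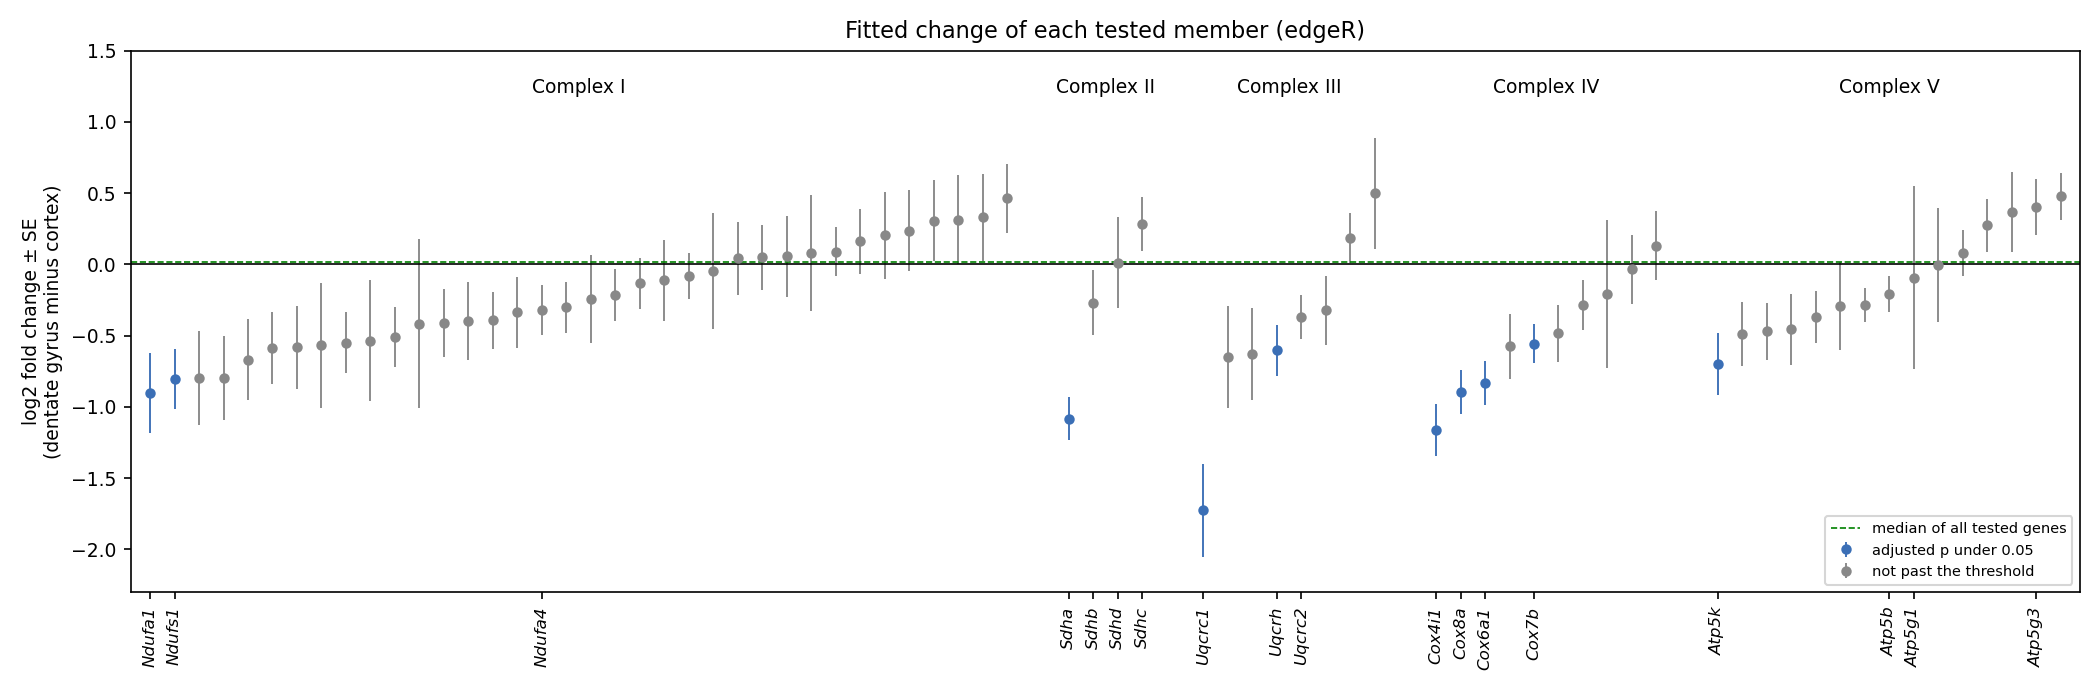
Each point is a tested member; the vertical axis is its fitted log2 fold change (dentate gyrus minus cortex) with 1 standard error either way, members are ordered by change within each complex, and names are given for the members the text describes by rule. Blue points passed the adjusted threshold, all 10 of them below 0, and most grey points also lie below the dashed median of all tested genes.

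The summed level differed between the tissues to different extents across the complexes; the sums are given as a description, with no test. Complex IV stood at 1260 and 1087 CPM in cortex and 748, 809 and 746 in dentate gyrus, 34.6% lower on average. Complex II stood at 482 and 498 against 321, 375 and 283 CPM, 33.4% lower, and complex III at 544 and 530 against 395, 434 and 412 CPM, 23.0% lower. The complex II difference lay in Sdha, at 319 CPM on average in cortex and 150 in dentate gyrus. Of its other subunits, Sdhb was lower on average in dentate gyrus, Sdhc higher and Sdhd nearly level. Complex I stood at 2047 and 1744 against 1626, 1647 and 1630 CPM, 13.8% lower; this difference of -261 CPM was -110 without cortex library 1 and -412 without cortex library 2. In these 4 complexes the libraries of the tissues did not overlap. Complex V stood at 4694 and 3792 against 4064, 3921 and 3616 CPM, and here the tissues overlapped: the mean was 8.86% lower in dentate gyrus, and without cortex library 1 the difference turned to 74.8 CPM higher in dentate gyrus. The ratio of the complex IV sum to the complex I sum, which does not depend on library scaling, was 0.616 and 0.623 in cortex and 0.460, 0.491 and 0.457 in dentate gyrus. The complex IV sum was lower relative to complex I in every dentate gyrus library. The ratio of complex V to complex I overlapped between the tissues, at 2.29 and 2.17 in cortex and 2.50, 2.38 and 2.22 in dentate gyrus.

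**Figure D2:**
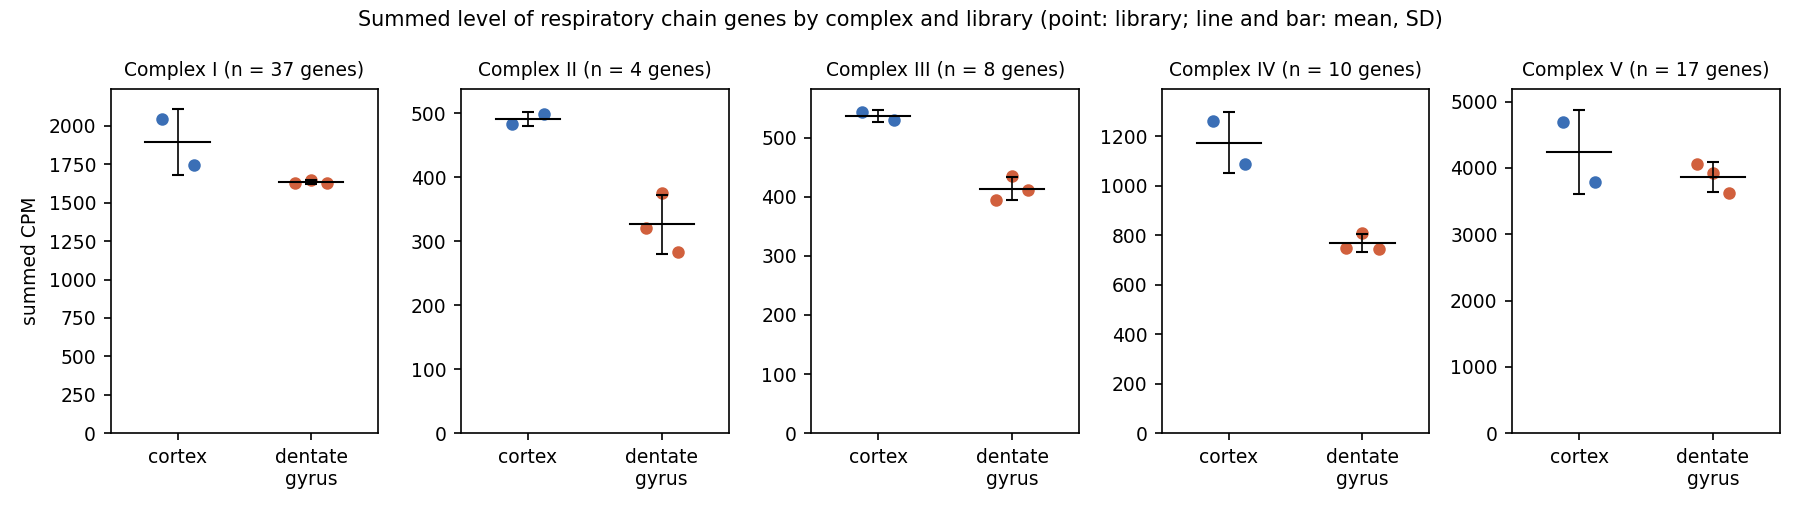
Points are libraries, horizontal lines group means and bars 1 SD of the summed CPM of each complex, on axes that start at 0. The dentate gyrus points lie below the cortex points for complexes I to IV and among them for complex V.

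Complex I takes electrons from NADH and is the largest of the 5 complexes. Of its 36 tested members, 2 were higher in cortex (5.56%, beside 10.8% of all tested genes) and the median change was -0.27. Ndufs1 (chr1:63143596-63176833) encodes the large iron-sulfur subunit of the NADH-oxidising module, and it had 67.1 and 72.1 CPM in cortex and 42.2, 42.3 and 35.2 CPM in dentate gyrus. The tissues did not overlap, and the change was -0.80 ± 0.21 (SE; edgeR adjusted p = 0.0226). Ndufa1 (chrX:37187588-37191163), a small accessory subunit of the membrane arm, had 40.5 and 38.7 CPM in cortex and 17.9, 26.6 and 18.9 CPM in dentate gyrus, without overlap (-0.90 ± 0.28, SE; edgeR adjusted p = 0.0458). Both calls rested on several libraries: leaving out either cortex library or dentate gyrus library 3 took each above the threshold (adjusted p 0.0616 to 0.119 for Ndufs1 and 0.109 to 0.181 for Ndufa1 in those edgeR fits), and for Ndufa1 so did leaving out dentate gyrus library 1 (adjusted p = 0.0941).

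The nuclear-encoded core subunits, which carry the flavin and the iron-sulfur clusters, did not share a direction. All 7 were tested, Ndufs1 alone passed, and the median change was 0.04. Ndufv1, the flavin- and NADH-binding subunit, changed by -0.80 ± 0.33 (SE), Ndufv2 by 0.09 and Ndufs3 by 0.33, none of them past the threshold. Ndufv1 nonetheless showed no overlap between tissues, with 31.1 and 19.6 CPM in cortex and 14.3, 14.1 and 15.4 CPM in dentate gyrus (edgeR adjusted p = 0.12). The remaining members, grouped by symbol, are mostly accessory subunits, which surround the core, and include Ndufa4 and Ndufa4l2, described below. Of these, 29 were tested, 1 was higher in cortex (3.45%) and their median was -0.32, the value of Ndufa4 itself. Their changes ranged from -0.90 for Ndufa1 to 0.46 for Ndufb3. Ndufa3 (41.6 and 45.4 CPM in cortex; 20.6, 20.9 and 33.6 in dentate gyrus) and Ndufa10 (137 and 101; 67.2, 78.6 and 98.0) lay just outside the threshold, with edgeR adjusted p of 0.0825 and 0.103, and limma voom called both.

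The most abundant complex I symbol was Ndufa4, whose protein is now placed in complex IV. It had 185 and 142 CPM in cortex and 118, 148 and 128 CPM in dentate gyrus, so the tissues overlapped, and its change was -0.32 ± 0.17 (SE; edgeR adjusted p = 0.239). Its paralogue Ndufa4l2, known as a hypoxia-induced gene, had 1 count in cortex library 1 and 0 in the other 4 libraries; a count of 0 allows up to 3 counts, or 0.0827 to 0.133 CPM in those libraries. Placing Ndufa4 in complex IV, adding the acyl carrier subunit Ndufab1 and cytochrome c1 (Cyc1), which the symbol rule misses, and leaving out Ndufa4l2, Atp5s and Atp5sl, gave 10 of 73 tested members higher in cortex, 4 of them among 11 in complex IV. Ndufab1 had 5.36 and 5.45 CPM in cortex and 4.75 to 4.85 in dentate gyrus (-0.17), and Cyc1 had 28.7 and 28.2 against 27.8, 27.0 and 33.3 CPM (0.04).

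Complex II showed a single large difference, in its catalytic subunit. Sdha (chr13:74322254-74350280), the flavoprotein that oxidises succinate, had 295 and 342 CPM in cortex and 146, 171 and 133 CPM in dentate gyrus. The means were 319 ± 33.5 (SD, n = 2) and 150 ± 19.4 (SD, n = 3), a 2.12-fold difference without overlap, and the change was -1.08 ± 0.15 (SE; edgeR adjusted p = 0.00078). The call was made in all 16 other fits of the same data. The other subunits did not pass the test. Sdhb, the iron-sulfur subunit, had 59.5 and 43.6 CPM in cortex and 43.6, 42.4 and 42.6 in dentate gyrus (-0.27 ± 0.23, SE), higher in both cortex libraries, by a narrow margin in library 2. Sdhc, a membrane anchor, had 58.6 and 60.2 against 68.8, 77.6 and 70.6 CPM (0.28 ± 0.19, SE), higher in every dentate gyrus library. Sdhd, the other anchor, spread from 37.2 to 83.8 CPM within dentate gyrus, around the 69.4 and 51.5 CPM of cortex (0.01 ± 0.32, SE). The edgeR adjusted p of these 3 subunits was 0.474, 0.343 and 0.987. The ratio of Sdha to Sdhb counts was 4.96 and 7.85 in cortex and 3.36, 4.04 and 3.13 in dentate gyrus.

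In complex III, which passes electrons from ubiquinol to cytochrome c, 2 of 8 members were higher in cortex and the median change was -0.49. That is 25% of 8 genes, beside 10.8% of all tested genes. Uqcrc1 (chr9:108936633-108949623), a core subunit on the matrix side, had 32.5 and 45.3 CPM in cortex and 13.3, 13.4 and 8.57 CPM in dentate gyrus. This 3.31-fold difference was the largest fitted change of any member, -1.73 ± 0.33 (SE; edgeR adjusted p = 0.00452); without cortex library 2 the adjusted p was 0.0530. Its partner core subunit Uqcrc2, the most abundant member of the complex, had 166 and 155 CPM in cortex and 122, 139 and 112 in dentate gyrus, also without overlap, and did not pass (-0.37 ± 0.16, SE; edgeR adjusted p = 0.13). The ratio of Uqcrc1 to Uqcrc2 was 0.196 and 0.293 in cortex and 0.109, 0.0964 and 0.0765 in dentate gyrus. Uqcrh (chr4:116066965-116075071), the hinge protein next to cytochrome c1, had 135 and 132 CPM in cortex and 75.5, 86.6 and 102 in dentate gyrus, without overlap (-0.60 ± 0.18, SE; edgeR adjusted p = 0.039). That call was lost when either cortex library, dentate gyrus library 1 or dentate gyrus library 2 was left out (adjusted p 0.0694 to 0.159). Uqcrfs1, the Rieske iron-sulfur protein, was at 74.1 and 80.2 CPM in cortex and 91.7, 81.6 and 89.3 in dentate gyrus (0.18 ± 0.18, SE). The small subunits Uqcrq, Uqcr11, Uqcr10 and Uqcrb changed by -0.65, -0.63, -0.32 and 0.50, none past the threshold.

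Complex IV had the largest share of members past the threshold, 4 of 10 higher in cortex and 0 higher in dentate gyrus. That is 40% of only 10 genes, beside 10.8% of all tested genes higher in cortex. The median change was -0.52, and 9 of the 10 fitted changes were negative. The catalytic centre of the enzyme is encoded by the mitochondrial genome, and the nuclear subunits measured here surround and regulate it. Cox4i1 (chr8:120668222-120674207), the ubiquitous form of subunit 4 through which adenine nucleotides act on the enzyme, had 101 and 125 CPM in cortex and 48.9, 51.4 and 51.2 in dentate gyrus. Its change was -1.16 ± 0.18 (SE; edgeR adjusted p = 0.00162), 2.24-fold, and it was called in all 16 other fits. Cox8a (chr19:7215153-7217616), a small subunit in the inner membrane, had 215 and 184 CPM in cortex and 116, 99.8 and 105 in dentate gyrus (-0.90 ± 0.15, SE; edgeR adjusted p = 0.00255). Cox6a1 (chr5:115345642-115348981), the form of subunit 6a made outside heart and skeletal muscle, had 209 and 179 against 103, 120 and 104 CPM (-0.83 ± 0.15, SE; edgeR adjusted p = 0.00408). In each of these 3 genes both cortex libraries lay above every dentate gyrus library.

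Cox7b (chrX:106015700-106022450), the most abundant member of the complex by CPM, had 278 and 242 CPM in cortex and 166, 192 and 172 in dentate gyrus, without overlap. Its change was the smallest of the 4, -0.56 ± 0.14 (SE, edgeR adjusted p = 0.0187). Without cortex library 1 the Cox7b change was -0.45 and the call was lost. Without dentate gyrus library 3 Cox7b also missed the threshold (edgeR adjusted p = 0.0564). The other 6 members did not pass. Cox7a2 (-0.57) and Cox5a (-0.48) were higher in both cortex libraries than in any dentate gyrus library, and Cox6c (-0.28), Cox7c (-0.21), Cox6b1 (-0.03) and Cox5b (0.13) overlapped. Cox6b1 was nearly level across libraries, at 35.0 and 36.4 CPM in cortex and 36.3, 30.6 and 37.7 in dentate gyrus. The ratio of Cox4i1 to Cox5b was 2.81 and 4.12 in cortex and 1.46, 1.29 and 1.43 in dentate gyrus. Cox4i1 had the most negative change of the complex and Cox5b the only positive one, so this separation adds nothing to those changes. Another locus shares 61.5% of the coding windows (described below) of Cox5b, so its level is uncertain.

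**Figure D3:**
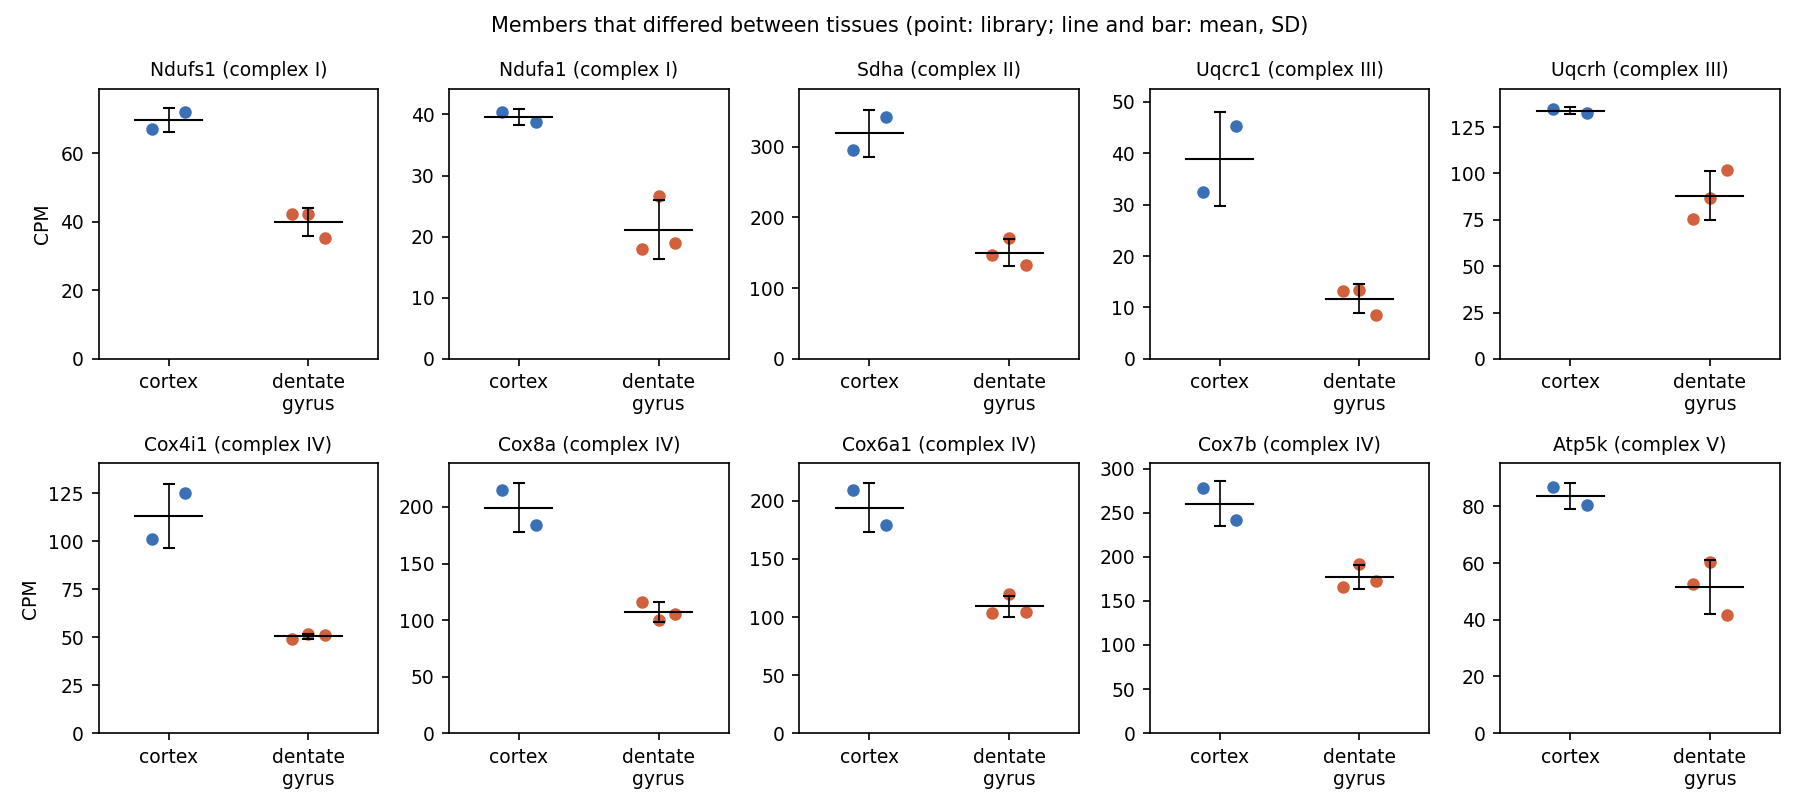
CPM of the 10 members higher in cortex, with points for libraries, lines for means and bars for 1 SD, on axes that start at 0. In each panel both cortex points lie above the 3 dentate gyrus points, by the widest ratio for Uqcrc1 and the narrowest for Cox7b.

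Complex V was dominated by Atp5b, the catalytic beta subunit, which alone made up 28.3% to 34.4% of all member counts per library. Atp5b had 2795 and 2224 CPM in cortex and 2463, 2171 and 1889 in dentate gyrus, with overlap, and did not pass (-0.21 ± 0.13, SE; edgeR adjusted p = 0.307). Per kilobase of transcript its mean level was 1310 CPM in cortex and 1135 in dentate gyrus, against 275 and 226 for Atp5a1, the alpha subunit that alternates with it in the F1 head. No F1 head subunit passed the test: Atp5a1 changed by -0.28, Atp5d by -0.47, Atp5e by -0.49 and Atp5c1 by 0.48. Atp5c1, the gamma subunit that turns within the head, is named after its values were seen. It had 274 and 189 CPM in cortex and 311, 331 and 327 in dentate gyrus, the tissues did not overlap, and the edgeR adjusted p was 0.0656.

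Of the 15 tested complex V members, 1 was higher in cortex (6.67%, beside 10.8% of all tested genes). This was Atp5k (chr5:108433244-108434448), the e subunit of the membrane part. It had 87.0 and 80.4 CPM in cortex and 52.5, 60.5 and 41.8 in dentate gyrus, without overlap (-0.70 ± 0.22, SE; edgeR adjusted p = 0.0448), and the call was lost when any library except dentate gyrus library 2 was left out (adjusted p 0.0646 to 0.201). The 6 tested genes of the stalks and membrane part had a median of -0.33, from -0.70 for Atp5k to 0.27 for Atp5f1. The c ring, whose turning couples proton flow to ATP synthesis, is made from 3 genes that encode the same mature protein. Atp5g3 supplied nearly all of their counts, with 219 and 144 CPM in cortex and 208, 272 and 240 in dentate gyrus (0.40 ± 0.20, SE; edgeR adjusted p = 0.185; without cortex library 1 the change was 0.74, with adjusted p = 0.0455). Atp5g1 had 5.02 and 3.98 against 5.65, 4.17 and 2.82 CPM (-0.09), and Atp5g2 had 3 to 13 counts per library and was not tested. Other loci share 99.7% of the coding windows (described below) of Atp5g1 and 100% of those of Atp5g2, but 0% of those of Atp5g3. Reads that fit several loci are set aside by the counting, so these counts cannot show which of the 3 genes supplied most transcript. The ratio of Atp5g3 to Atp5a1 was 0.295 and 0.233 in cortex and 0.392, 0.486 and 0.410 in dentate gyrus.

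Low values of several members went with sequence that other loci share. For each member, the 50-base windows of the coding sequence were searched in all other annotated transcripts, since reads that fit several loci are set aside by the counting; the sources used here do not state the read length. No window was shared in 43 members, at most 10% in 53, and at least 50% in 12. The median level was 61.2 CPM per kb in the 53 and 17.9 CPM per kb in the 12. The members with the most shared sequence were Atp5l, Atp5g2, Cox7c and Ndufb4, at 100% each, and Atp5g1, at 99.7%; the annotated Atp5g1 transcript used for its level per kb is 4715 bases long. Atp5l, the g subunit, had 2 to 9 counts per library, and Cox7c 5.16 to 7.98 CPM. Their levels, and those of the other members of this class, are uncertain, and a low value is no measure of how much of the transcript was present. As examples, the coding stretch of Atp5l below (transcript bases 296 to 345) also occurs at 9 other loci, all pseudogenes, and that of Cox7c (bases 260 to 309) at 2, both pseudogenes.
Atp5l: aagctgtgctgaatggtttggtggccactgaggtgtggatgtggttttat
Cox7c: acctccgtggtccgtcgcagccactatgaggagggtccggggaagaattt

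Of the 52 tested members with at most 10% of windows shared, 8 were higher in cortex and 0 were higher in dentate gyrus, with a median change of -0.33. Of the 12 with at least 50% shared, 10 were tested and 0 passed; 10.8% of all tested genes were higher in cortex, and the difference between these classes was not tested. Of the 10 members higher in cortex, Uqcrh and Cox6a1 had 17.9% and 22.3% of windows shared with 1 pseudogene each, and the rest at most 3.14%. Across all 76 members, the rank correlation of level per kb with percent shared was -0.23, a description across genes that share libraries. Exons of 24 members overlap a gene on the opposite strand, among them Ndufs1 (Eef1b2 and Ino80dos), Cox4i1 (Emc8) and Atp5j (Gabpa). The sources used here do not say whether the counting used strand, so reads of such partners may not have been told apart.

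**Figure D4:**
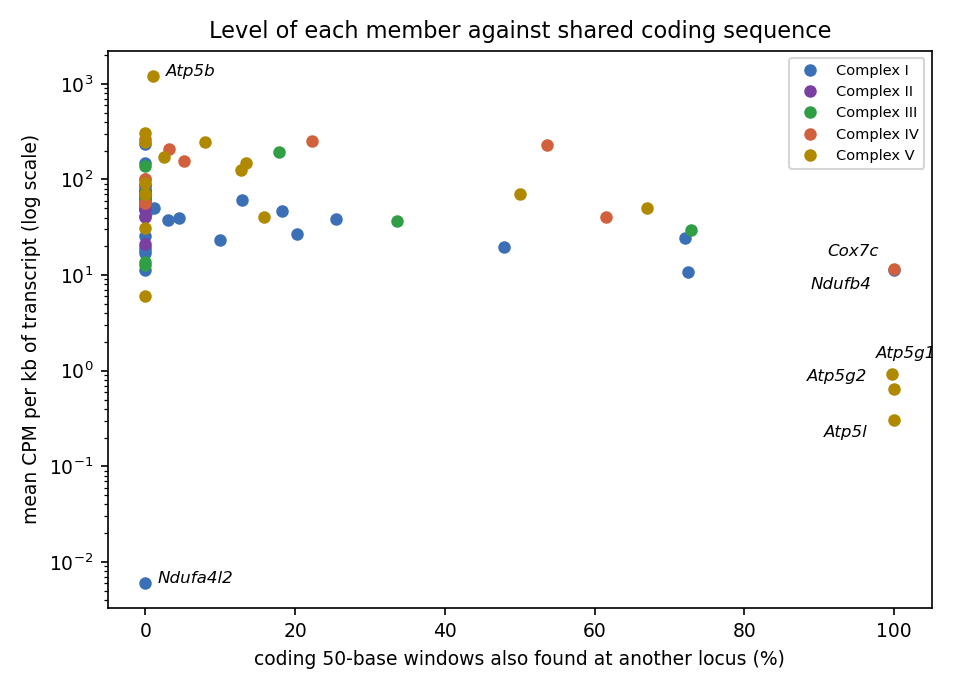
Each point is a member; the horizontal axis is the percent of its coding 50-base windows also found at another locus, and the vertical axis its mean CPM per kb of transcript on a log scale. The members at 100% lie low, with Atp5l and Atp5g2 below 1 CPM per kb, and Ndufa4l2 lies lowest without shared windows.

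The precision of the test limits what can be said of the 63 tested members that did not pass. Standard errors ranged from 0.12 to 0.64. For 43 of the 63 the 95% interval stayed within a 2-fold change either way; 16 intervals reached 2-fold lower and 5 reached 2-fold higher in dentate gyrus. At an unadjusted p under 0.05, 11 of the 63 were lower in dentate gyrus and 1 was higher. Of the 10 members that passed, Sdha and Cox4i1 passed in all 16 other fits, Uqcrc1, Cox6a1 and Cox8a in 15, Cox7b in 12, Ndufs1 and Uqcrh in 11, and Ndufa1 and Atp5k in 10.

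Other genes of the pathway were read from lists drawn up with earlier results of these data known. The median change of 9 other subunits, regulators of ATP synthase and electron carriers was -0.08. Of these, 1 was higher in cortex, or 11.1%, beside 10.8% of all tested genes. That was Atpif1, the inhibitor that stops ATP synthase from running backwards, with 291 and 258 CPM in cortex and 157, 170 and 156 in dentate gyrus (-0.77 ± 0.13, SE; edgeR adjusted p = 0.00275). It binds the beta subunit, Atp5b, whose values are given above. Cytochrome c (Cycs), which carries electrons from complex III to complex IV, had 9.55 and 9.92 CPM in cortex and 13.0, 8.61 and 5.91 in dentate gyrus (-0.08). All of its coding windows are shared with other loci (100%), as are 99.8% of those of Ndufab1, so both levels are uncertain.

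Apart from Cox7a2l, the listed isoforms of complex IV subunits were scarce beside the common forms. Cox6a2, the form of subunit 6a typical of muscle, had 44 and 62 counts in cortex and 1, 0 and 0 in dentate gyrus. Pooled, 106 counts against 1 give a ratio of 150 in CPM, with an exact 95% interval of 26.4 to 5992 that covers counting error only (edgeR adjusted p = 0.0156, lost when either cortex library was left out, at 0.0648 and 0.165). At 1.25 and 2.54 CPM, it stayed under the 209 and 179 CPM of Cox6a1 in the same libraries. Cox7a1, the muscle form of subunit 7a, had 0.940 and 1.52 CPM in cortex and 0.358, 0.0444 and 0.117 in dentate gyrus, and did not pass (edgeR adjusted p = 0.207). Cox7a2l, which joins complexes III and IV into supercomplexes, went the other way, with 29.8 and 37.9 CPM in cortex and 47.3, 43.3 and 49.5 in dentate gyrus (0.46 ± 0.24, SE; edgeR adjusted p = 0.208). Another locus shares 71.5% of the coding windows of Cox7a2l, so its level is uncertain. Cox4i2, the alternative subunit 4, had at most 14 counts in any library, Cox6b2 at most 6, and Cox8b and Cox8c none; Cox7b2 had 45 counts in dentate gyrus library 2 and at most 1 elsewhere. None of these 5 was tested.

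Among the assembly factors, which build the complexes without staying in them, 43 were tested, 0 were higher in dentate gyrus and 1 was higher in cortex, with a median of -0.04. That was Atpaf1, a chaperone of the F1 beta subunit, at 41.4 and 29.3 CPM in cortex and 11.0, 17.6 and 13.0 in dentate gyrus (-1.35 ± 0.33, SE; edgeR adjusted p = 0.0153, and 0.148 without cortex library 1). Its coding sequence shares 79.5% of windows with another locus. The 17 complex IV assembly factors tested had a median of 0.06 and none passed; 10.8% of all tested genes were higher in cortex.

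Of 17 tested regulators of respiratory gene expression, 2 were higher in cortex and 1 was higher in dentate gyrus, and the median was 0.31. The 2 are 11.8% of those tested, near the 10.8% of all tested genes higher in cortex. The 1 is 5.88%, under the 10.5% of all tested genes higher in dentate gyrus. Ppargc1a, the coactivator that drives mitochondrial biogenesis, had 492 and 438 CPM in cortex and 236, 347 and 191 in dentate gyrus (-0.85 ± 0.21, SE; edgeR adjusted p = 0.0189, and 0.107 without cortex library 1). Esrrg, an oestrogen-related receptor that works with it, had 186 and 163 against 72.3, 44.1 and 39.1 CPM (-1.75 ± 0.25, SE; edgeR adjusted p = 0.000979). Gabpa, the DNA-binding subunit of GABP, was higher in dentate gyrus, at 35.2 and 41.9 CPM in cortex and 93.5, 97.1 and 97.6 in dentate gyrus (1.32 ± 0.19, SE; edgeR adjusted p = 0.00107); it overlaps Atp5j on the opposite strand, which was at 93.5 to 105 CPM in all libraries. Nrf1 had 6.41 and 4.26 CPM in cortex and 4.16, 6.75 and 7.71 in dentate gyrus (0.22), and Tfam, which packages mitochondrial DNA, 28.7 and 38.8 against 32.0, 45.4 and 55.5 CPM (0.39). In all 3 regulators that passed, the tissues did not overlap, which follows largely from passing a test on the same libraries. Of the 17 regulators, 3 had both cortex libraries above all dentate gyrus libraries and 7 had them below. Over all tested genes these shares were 25.0% and 25.1%.

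**Figure D5:**
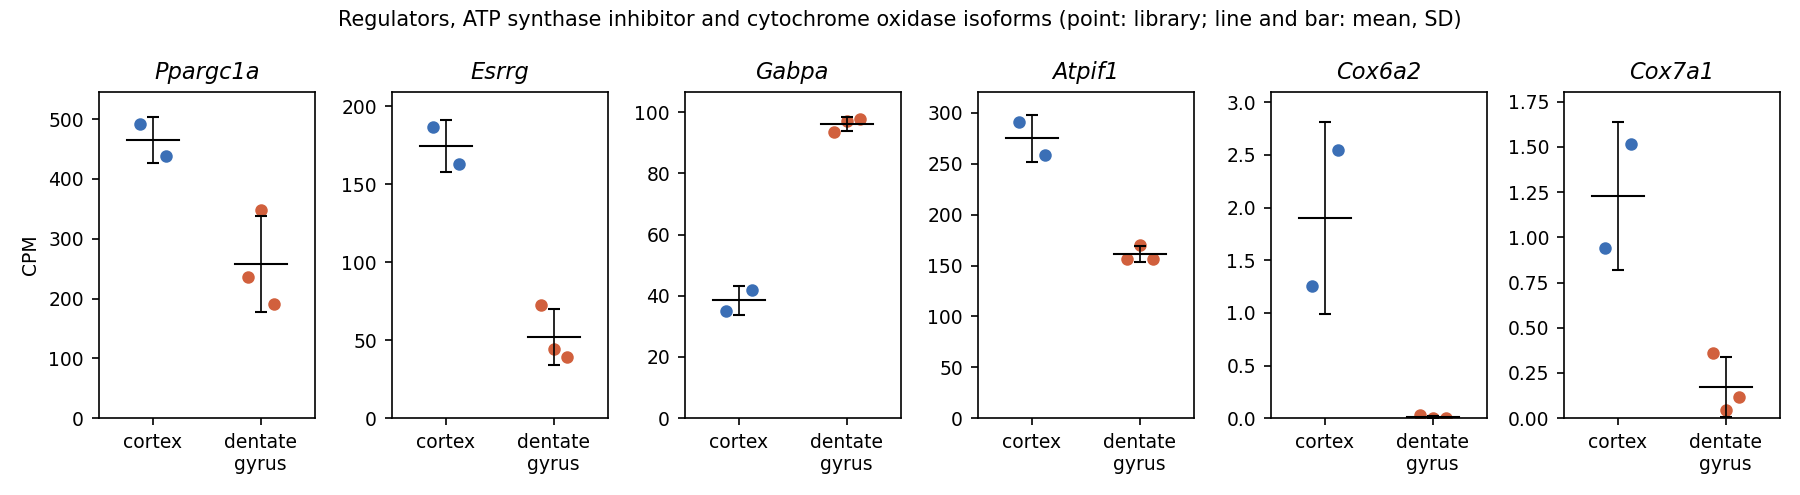
CPM of 3 regulators, the ATP synthase inhibitor Atpif1 and 2 muscle-type isoforms of complex IV, with points for libraries, lines for means and bars for 1 SD, on axes that start at 0. Gabpa is higher in every dentate gyrus library and the other 5 genes are higher in both cortex libraries.

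The ribosomal protein genes did not share the negative median of the respiratory chain genes. Of 73 tested genes of the mitochondrial ribosome, which translates the mitochondrially encoded subunits, 4 were higher in dentate gyrus, 0 were higher in cortex, and the median was 0.15. The 4 are 5.48% of those tested, fewer than the 10.5% of all tested genes higher in dentate gyrus. The 4 were Mrpl3 (0.85), Mrpl57 (0.91), Mrpl17 (0.86) and Mrpl39 (0.83 ± 0.24, SE), with edgeR adjusted p of 0.0127, 0.0137, 0.0146 and 0.0359. Mrpl3 had 44.3 and 42.8 CPM in cortex and 83.7, 78.8 and 72.7 in dentate gyrus, and Mrpl57 32.9 and 32.2 against 58.5, 60.9 and 63.9 CPM, without overlap in either. Without cortex library 1, Mrpl39 alone of the 4 passed, and without cortex library 2 none did (adjusted p 0.0547 to 0.266); the Mrpl39 call was also lost without dentate gyrus library 2 (0.101) or 3 (0.0821). Of 75 tested genes of the cytosolic ribosome, Rpl4 and Rps6 were higher in dentate gyrus and Rpl41 was higher in cortex, with a median of 0.23. These are 2.67% and 1.33% of those tested, beside 10.5% and 10.8% of all tested genes. Rps6 and Rpl41 share 100% of their coding windows with other loci. The Rpl4 call was lost without cortex library 1 (edgeR adjusted p = 0.0925), the Rpl41 call without either cortex library (0.0540 and 0.0530), and the Rps6 call without cortex library 2 (0.178), dentate gyrus library 1 (0.0537) or dentate gyrus library 3 (0.108).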

How the data were processed

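The 5 libraries hold ribosome-bound RNA from anti-EGFP pulldowns. The authors deposited raw counts per gene symbol for each library; reads were aligned with STAR 2.0.0e and counted with HTSeq on mm10, per the submitters' processing notes. Annotation, strand setting and overlap mode: not given in the sources used here. HTSeq's summary rows name no gene and were left out of library sizes: reads not uniquely placed were 25.0% to 31.8% of a library, reads in no feature 10.6% to 14.8%, and ambiguous reads 1.81% to 1.87%.

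Counts were fitted with edgeR 4.0.16 (R 4.3.3) by the quasi-likelihood test, with tissue as the only term, TMM scaling and the filterByExpr filter, which kept 14136 of 32531 genes. P-values were adjusted by Benjamini-Hochberg over all genes tested, and the threshold was 0.05. CPM values use TMM-scaled totals of gene rows. Alternatives used DESeq2 1.42.0, limma 3.58.1 (voom), other scalings, filters and dispersions, the replicate number as a block, and left-out libraries. Library pairs within a tissue differed by more than counting noise. Gene positions and coding windows came from the GENCODE annotation of GRCm38, promoters from RefSeq (GRCm38.p6); all 76 members matched the annotation and 64 a promoter.

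Members, lists and tests were chosen with earlier results of these data known. Named members are up to 4 per complex that passed the test, by adjusted p; the most abundant of each complex; the c ring genes, Ndufa4, Ndufa4l2 and all Sdh genes; those that failed the filter; and, of other lists, up to 4 that passed and every complex IV isoform. Role groups within complexes, and further members named to complete them, were added after values were seen. Some members are not reported here by name.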

Additional observations from a re-analysis of the deposited data

How the results depend on the processing

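All 3 other scalings, leaving out the ribosomal RNA gene Rn45s, a stricter filter on low counts and robust dispersion each kept the same 10 members higher in cortex and 0 higher in dentate gyrus; no mitochondrial-genome gene was there to leave out. The count higher in dentate gyrus was 1 with no filter, with DESeq2 and with limma voom. Without 1 library at a time it ranged from 0 to 2, the count higher in cortex from 5 to 9, the members' median from -0.42 to -0.14, and all genes called from 1886 to 2775, against 3009. Cortex replicate 1 and dentate gyrus replicate 2 were also left out together, because earlier results held that they carry genes unlike their group. Then 1578 genes were called, 3 members were higher in cortex (Sdha, Uqcrc1 and Cox4i1), 1 was higher in dentate gyrus (Atp5c1), and the median was -0.15. The lone cortex library is then assumed to vary like the other groups. The difference in summed CPM (-1330) ranged from -2018 to -641 without 1 library at a time, and for the summed share, complex V, it ranged from -826.8 CPM without cortex replicate 2 to a reversed 74.8 CPM without cortex replicate 1. Of 288 values of single members under these settings, 258 kept their direction and side of the threshold, 29 lost the threshold, 1 gained it and 0 reversed; of 239 values of other pathway genes, 203 kept both and 36 lost the threshold. The cause of these changes was not tested. Restricting members to those with at most 10% shared windows, chosen after seeing the data, gave 8 higher in cortex and a median of -0.33.

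With the replicate number as a block, 6 members were higher in cortex; Ndufa1, Ndufs1, Cox7b and Atp5k were lost. Only 2 numbers are shared between the tissues. The labels do not tie them to animals, so the numbers were not taken to pair the libraries. Deviations of same-numbered libraries correlated at -0.01. With only 2 cortex libraries, whose deviations mirror each other, this value cannot tell whether libraries share an animal.

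With 2 libraries against 3, members at low counts had standard errors up to 0.64.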
